A study of Mus musculus with 24 samples.

Results

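Angiopoietins, angiopoietin-like proteins and vascular endothelial growth factors (VEGFs) are secreted proteins, and 8 genes that encode them were followed here across every group of the series: Angpt1, Angpt2, Angpt4, Angptl2, Angptl4, Vegfa, Vegfb and Vegfc. They are 8 of 37041 genes in the expression tables, each listed once per library under its symbol. The 8 genes were chosen on their expression values across these groups. Their levels, differences and calls (an adjusted p below 0.05) are therefore given as a description, with no p-values.

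RNA sequencing of polyadenylated RNA from mouse material gave 24 libraries, 3 in each of 8 groups. C2C12 is a mouse myoblast line that fuses into contractile myotubes when it differentiates. NFIA-expressing C2C12 cells and control C2C12 cells were collected on day 0, on day 7, and on day 7 following a 4 hour exposure to 10 uM forskolin, an activator of adenylyl cyclase that raises cellular cAMP. The remaining 6 libraries came from brown adipose tissue, 3 labelled NFIA-KO and 3 labelled wild-type, which the study's design text assigns to neonates. The sources used here do not give how NFIA was introduced into the cells, how the cells were treated between day 0 and day 7, or which part of the gene the knockout allele lacks. Nothing states that the libraries of a group came from separate cultures or animals, so the tests measure the spread between these libraries, which may be technical.

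Angpt1, Angpt2 and Angpt4 are ligands of the receptor tyrosine kinase Tie2, encoded by Tek. Angpt1 stabilises vessels through Tie2, and Angpt2 can oppose it. Angptl4 inhibits lipoprotein lipase, the enzyme that releases fatty acids from circulating triglyceride, and is a known target of the fatty acid receptors of the PPAR family. Angptl2 has an angiopoietin-like structure without binding the Tie receptors. Vegfa drives the growth of blood vessels through the receptors Kdr and Flt1. Vegfb binds Flt1, and Vegfc binds Flt4 on lymphatic endothelium. Brown fat is densely supplied with capillaries and takes up circulating lipid, so both activities are known there.

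The values are FPKM, the authors' measure of RNA level corrected for gene length and library size, which can be compared between genes per length. Nfia, the gene introduced or deleted, had 1283, 1273 and 1252 FPKM in NFIA cells at day 0, against 1.17, 0.26 and 0.55 FPKM in control cells. At day 7 it had 3585, 3256 and 3189 FPKM in NFIA cells, against 2.23, 0.81 and 0.94 FPKM in control cells. With forskolin it had 9876, 10448 and 9232 FPKM in NFIA cells, against 1.82, 1.58 and 1.32 FPKM in control cells. The labels of the cells were borne out by Nfia, whose level in NFIA cells was also 2.63-fold higher at day 7 than at day 0 and 2.95-fold higher with forskolin than without it. In brown fat the libraries labelled NFIA-KO had 44.58, 40.13 and 39.43 FPKM of Nfia, against 24.34, 32.82 and 32.58 FPKM in wild-type libraries. Nfia was therefore higher in every library labelled NFIA-KO than in any wild-type library, a direction that goes against the label (difference of 0.47 ± 0.15 (SE) in log2(FPKM + 1), limma, adjusted p = 0.097). The difference was not called, and libraries did not overlap for 34.7% of all genes tested in the tissue. A gene-level FPKM also counts reads from parts of a gene that a knockout allele may keep.

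The libraries summed to between 762822 and 1575522 FPKM and had 17304 to 21410 genes above 0. Dates in the column headers put 12 libraries in an earlier year and 12 in a later one, with 1 earlier and 2 later libraries in each C2C12 group and all tissue libraries in the earlier year. Skeletal muscle markers summed to 3154, 3697 and 4395 FPKM in NFIA cells at day 7, against 28107, 27889 and 28759 FPKM in control cells. All 7 adipocyte markers were called higher in NFIA cells at day 7 (limma), beside 55.5% of all genes called in either direction. Of the 7, 3 had passed the expression minimum only through NFIA cells. Skeletal muscle markers also differed in the tissue, where they summed to 2155, 364 and 1118 FPKM in the libraries labelled NFIA-KO and to between 89.8 and 174 FPKM in wild-type libraries. The part of these cell differences in the results below was not tested. Fabp4, an abundant adipocyte gene, was listed at 0 in wild-type tissue replicate 3 alone, so a listed 0 in these tables can be a failed estimate.

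Of the 8 genes, 5 (Angpt4, Angptl2, Vegfa, Vegfb and Vegfc) had an entry among the RefSeq promoters, and 3 of these are shown because their patterns differ: Angpt4 was highest in NFIA cells at day 0, Angptl2 was lower in NFIA cells at every stage, and Vegfa was higher with day and with forskolin in both kinds of cell. They are the 250 bases before the transcription start in RefSeq (GRCm38.p6), written 5′ to 3′ on the strand of the gene. Angpt1, Angpt2 and Angptl4 had no entry. Angpt4 lies on the plus strand at chr2:151910957-151911206, and its capitals mark TATAAA, the box bound by general initiation factors, searched on the strand of the gene and present in 7.59% of 32851 promoter windows of that length. Angptl2 lies on the plus strand at chr2:33215711-33215960, and its capitals mark GCCAA, the reverse complement of TTGGC, the core recognised by NFI factors. Vegfa lies on the minus strand at chr17:46032378-46032627, and its capitals mark GGGCGG, the GC box bound by Sp1-like factors.
Angpt4: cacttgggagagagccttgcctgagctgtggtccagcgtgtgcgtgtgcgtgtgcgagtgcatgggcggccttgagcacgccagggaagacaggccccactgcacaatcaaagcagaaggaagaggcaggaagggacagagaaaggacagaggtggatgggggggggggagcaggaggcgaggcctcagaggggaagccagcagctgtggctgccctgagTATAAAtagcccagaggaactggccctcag
Angptl2: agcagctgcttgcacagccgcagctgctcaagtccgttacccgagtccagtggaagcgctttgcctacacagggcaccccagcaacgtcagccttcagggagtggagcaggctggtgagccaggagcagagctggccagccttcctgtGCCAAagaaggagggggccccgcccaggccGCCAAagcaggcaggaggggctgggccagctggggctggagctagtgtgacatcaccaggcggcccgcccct
Vegfa: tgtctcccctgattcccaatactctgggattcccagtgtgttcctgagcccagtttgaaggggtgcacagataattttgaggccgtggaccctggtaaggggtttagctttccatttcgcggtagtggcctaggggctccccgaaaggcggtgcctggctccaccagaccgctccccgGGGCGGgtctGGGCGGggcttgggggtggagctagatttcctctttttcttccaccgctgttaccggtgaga
On both strands, TTGGC was found in 41.5% of the 32851 windows and the GC box in 32.7%. The Angptl2 window held the NFI core at 2 places, 102 and 72 bases before the start (counted to the first base of the match), and TGACG, the core of the cAMP response element, at 165 bases before the start. TGACG occurred in 17.8% of windows. The Angpt4 window held no TTGGC and no TGACG, and its TATA box began 30 bases before the start. The Vegfa window held GC boxes beginning 72 and 62 bases before the start, and neither the NFI core nor the cAMP core. GC boxes were in the windows of all 5 genes, at 83 and 8 bases before the start of Angptl2 and at 187 bases before that of Angpt4, where they are not capitalised. The Vegfa window shown also lacked ACGTG, the core of the hypoxia response element, which occurred in 16.6% of windows. RefSeq gives Vegfa a second start, whose window, not shown, held ACGTG at 211 bases, TGACG at 209 bases and a GC box at 158 bases before that start. The ACGTG and TGACG matches in that window overlap, so they are not separate sites. The symmetric NFI site (0.0365% of windows), the full cAMP element TGACGTCA (1.55%) and the PPAR direct repeat with a spacer of 1 base (0.0335%) were in none of the 3 windows. These matches describe the letters of the windows, since no binding was measured here.

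**Figure D1:**
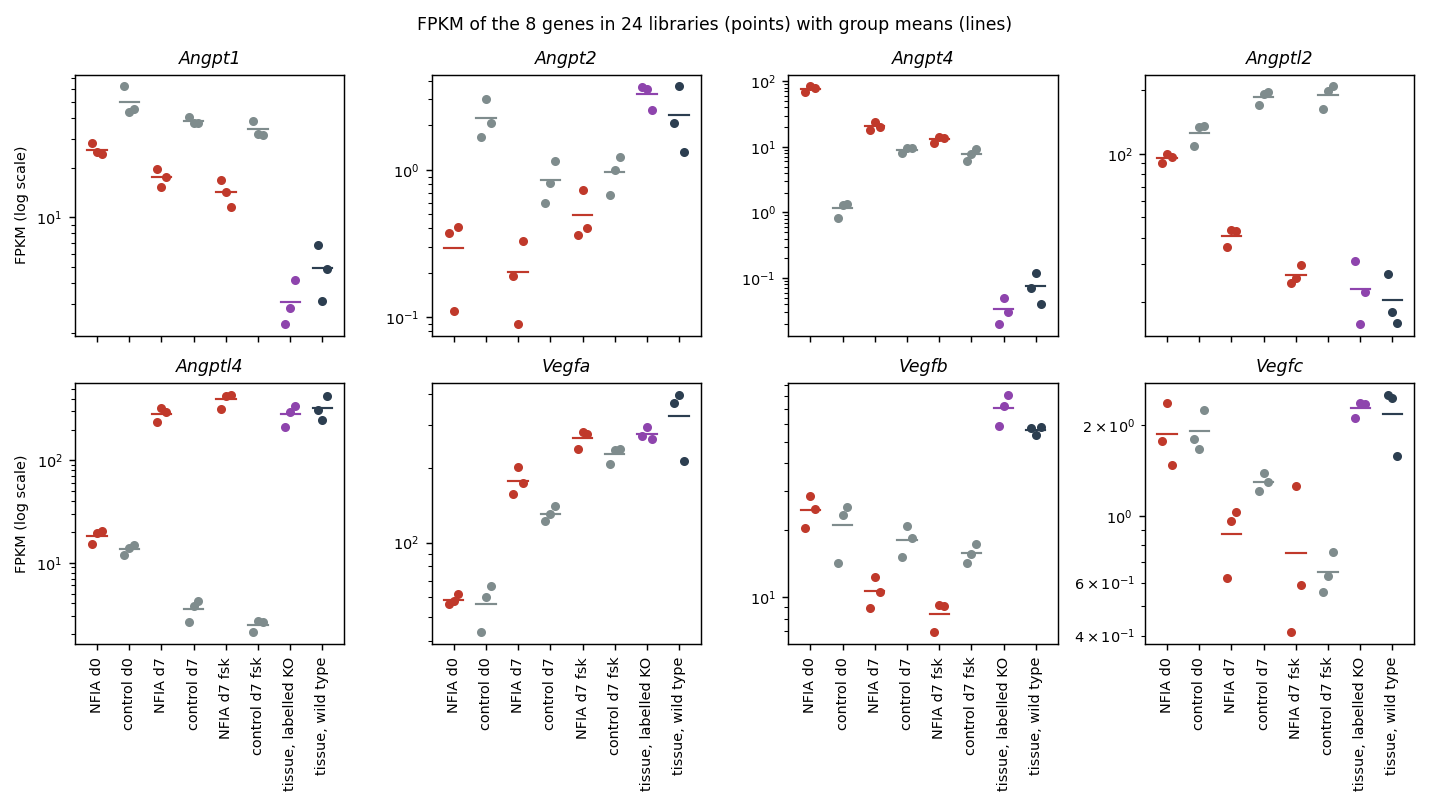
FPKM of the 8 genes (log scale) in each of the 24 libraries, with 3 points per group and a line at the group mean. Angpt4 was highest in NFIA cells at day 0 (mean 76.4 FPKM), Angptl4 was above 200 FPKM in NFIA cells at day 7 and in all 6 tissue libraries, and Angptl2 was highest in the control cells.

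Among the Tie2 ligands, Angpt4 (listed at chr2:151736943-151771073 in mm9) had the widest contrast. The mm9 positions given are the listed loci, which can be wider than the gene, since Acta1 and Cdh15 are listed with an identical locus. At day 0 it had 67.8, 83.36 and 77.93 FPKM in NFIA cells, against 0.83, 1.28 and 1.34 FPKM in control cells. At day 7 it had 17.76, 23.66 and 19.94 FPKM in NFIA cells, against 7.96, 9.63 and 9.54 FPKM in control cells. With forskolin it had 11.49, 14.29 and 13.84 FPKM in NFIA cells, against 5.98, 7.84 and 9.28 FPKM in control cells. The NFIA and control libraries did not overlap at any of the stages. Over all genes tested, libraries did not overlap for 33.5% at day 0, 63.3% at day 7 and 65.1% with forskolin. The ratio of means of Angpt4 was 66.4 at day 0, 2.26 at day 7 and 1.72 with forskolin. As differences of log2(FPKM + 1) these were 5.17 ± 0.15, 1.09 ± 0.15 and 0.72 ± 0.15 (SE), and within the earlier and the later header dates they were 5.23 and 5.14 at day 0 and 1.07 and 1.10 at day 7. The narrowing had opposite parts in the 2 kinds of cell: Angpt4 was 3.73-fold lower at day 7 than at day 0 in NFIA cells and 7.86-fold higher at day 7 than at day 0 in control cells. In brown fat Angpt4 had 0.02, 0.05 and 0.03 FPKM in the libraries labelled NFIA-KO, against 0.07, 0.12 and 0.04 FPKM in wild-type libraries. The tissue was thus the lowest of all groups, with overlapping libraries, and Angpt4 was not tested there because it stayed under the minimum of 1 FPKM in 3 libraries.

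Angpt1 (chr15:42256273-42536162 in mm9), the Tie2 agonist, was lower in NFIA cells at each stage. It averaged 25.7 ± 2.06 FPKM in NFIA cells and 50.3 ± 10.4 FPKM in control cells at day 0 (SD, n = 3 each, as for all means below). The means were 17.5 ± 2.10 FPKM in NFIA cells and 38.5 ± 1.82 FPKM in control cells at day 7, and 14.2 ± 2.70 FPKM in NFIA cells and 34.1 ± 3.90 FPKM in control cells with forskolin. Every NFIA library was below every control library of its stage, and control cells held between 1.96 and 2.40 times the level of NFIA cells. Libraries were likewise apart for 33.5%, 63.3% and 65.1% of all genes tested at day 0, at day 7 and with forskolin. The difference of log2(FPKM + 1) was -1.12 within the earlier and -0.83 within the later header dates at day 0, and -1.02 and -1.15 at day 7. In the order of levels, the 3 control groups came first, then the 3 NFIA groups, then the tissue. Neighbouring groups overlapped between day 7 with and without forskolin, in each kind of cell, and between the tissue groups. The tissue had 2.26, 2.84 and 4.17 FPKM in the libraries labelled NFIA-KO, against 6.79, 3.11 and 4.89 FPKM in wild-type libraries.

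Angpt2 (chr8:18595131-18803189 in mm9), the context-dependent antagonist, was near or under 1 FPKM in most cell libraries. At day 0 it had 0.37, 0.11 and 0.41 FPKM in NFIA cells, against 1.67, 3.0 and 2.08 FPKM in control cells. It averaged 0.203 ± 0.121 FPKM in NFIA cells and 0.853 ± 0.272 FPKM in control cells at day 7, and 0.497 ± 0.203 FPKM in NFIA cells and 0.963 ± 0.277 FPKM in control cells with forskolin. The libraries were apart at day 0 and day 7, as for 33.5% and 63.3% of all genes tested, and overlapped with forskolin. Its highest group means were in brown fat, with 3.25 ± 0.609 FPKM in the libraries labelled NFIA-KO and 2.36 ± 1.2 FPKM in wild-type libraries, which overlapped each other and the control cells of day 0. The listed locus of Angpt2 overlaps those of Mcph1 (up to 10.8 FPKM) and the pseudogene Gm17149 (up to 136 FPKM), which need not mean that the genes overlap. The library kit marks strand, but no source used here states whether the counting did, so these genes could share reads.

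Angptl4 (chr17:33910695-33918520 in mm9), the inhibitor of lipoprotein lipase, was close between the cells at day 0 and far apart at day 7. At day 0 it had 15.34, 19.67 and 20.23 FPKM in NFIA cells, against 11.91, 13.96 and 14.79 FPKM in control cells. At day 7 it had 236.69, 322.77 and 297.34 FPKM in NFIA cells, against 2.62, 3.79 and 4.19 FPKM in control cells. With forskolin it had 317.82, 429.44 and 437.09 FPKM in NFIA cells, against 2.09, 2.69 and 2.61 FPKM in control cells. The libraries did not overlap at any stage, beside 33.5%, 63.3% and 65.1% of all genes tested at the 3 stages. The ratio of means was 1.36 at day 0, 80.8 at day 7 and 160 with forskolin. The differences of log2(FPKM + 1) were 0.41 ± 0.17, 5.99 ± 0.17 and 6.83 ± 0.17 (SE), and within the earlier and the later header dates they were 6.04 and 5.96 at day 7. From day 0 to day 7 the 2 kinds of cell went in opposite directions: the mean was 15.5-fold higher at day 7 in NFIA cells and 3.84-fold lower at day 7 in control cells. Brown fat held similar amounts to NFIA cells at day 7, with 212.66, 294.02 and 336.24 FPKM in the libraries labelled NFIA-KO and 311.13, 248.36 and 424.29 FPKM in wild-type libraries. NFIA cells with forskolin, wild-type tissue, NFIA cells at day 7 and tissue labelled NFIA-KO overlapped each with the next in the order of means.

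Angptl2 (chr2:32988941-33227006 in mm9) ran the other way. The day 0 values were 90.39, 99.46 and 96.80 FPKM in NFIA cells, against 109.26, 134.38 and 135.69 FPKM in control cells. The day 7 values were 36.30, 43.65 and 43.07 FPKM in NFIA cells, against 169.28, 191.98 and 196.67 FPKM in control cells. Forskolin-treated cells had 24.50, 25.80 and 29.73 FPKM in NFIA cells, against 162.26, 197.74 and 208.15 FPKM in control cells. The gap widened with each stage, with differences of -0.39 ± 0.12, -2.16 ± 0.12 and -2.78 ± 0.12 (SE) in log2(FPKM + 1), and control cells held 1.32, 4.54 and 7.10 times the mean of NFIA cells. The day 0 difference was small against the spread, since its call ended when any of 5 of the 6 libraries was left out, all but control replicate 1 (-0.34 to -0.42 without them). Tissue levels were 31.06, 15.70 and 22.20 FPKM in the libraries labelled NFIA-KO and 26.95, 17.88 and 15.93 FPKM in wild-type libraries, next to those of forskolin-treated NFIA cells. Within the earlier and the later header dates the Angptl2 difference was -0.27 and -0.46 at day 0 and -2.19 and -2.14 at day 7. Ralgps1, which shares the Angptl2 locus, stayed at or under 1.97 FPKM in every library.

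Vegfa (chr17:46153942-46169326 in mm9), the main angiogenic factor of the group, differed little by NFIA and more by stage. On day 0 there were 56.32, 58.00 and 61.91 FPKM in NFIA cells, against 43.27, 60.01 and 66.52 FPKM in control cells, which overlapped. On day 7 there were 156.96, 202.73 and 174.02 FPKM in NFIA cells, against 122.09, 130.64 and 140.64 FPKM in control cells. With forskolin it had 239.79, 280.41 and 274.72 FPKM in NFIA cells, against 207.76, 236.23 and 239.12 FPKM in control cells. NFIA libraries were all above control libraries at day 7 and with forskolin, by 0.43 ± 0.14 and 0.22 ± 0.14 (SE) in log2(FPKM + 1), the second of which was -0.08 under quantile normalization. Libraries were apart for 63.3% and 65.1% of all genes tested at these stages. For Vegfa the day 0 difference was 0.37 within the earlier and -0.08 within the later dates, and at day 7 it was 0.36 and 0.47. The call at day 7 ended without control replicate 1 (0.38) or without NFIA replicate 2 (0.33). Day 7 was higher than day 0 by 1.58 ± 0.14 in NFIA cells and by 1.22 ± 0.14 in control cells. Brown fat had 271.47, 293.58 and 263.07 FPKM in the libraries labelled NFIA-KO, against 368.53, 397.37 and 214.73 FPKM in wild-type libraries, where replicate 3 lay below every library labelled NFIA-KO.

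Vegfb (chr19:7056963-7062141 in mm9), the Flt1 ligand, was 2.33-fold lower at day 7 than at day 0 in NFIA cells. On day 0 it had a mean of 24.7 ± 4.07 FPKM in NFIA cells, against 14.26, 23.49 and 25.31 FPKM in the control libraries, and the groups overlapped. At day 7 the means were 10.6 ± 1.64 FPKM in NFIA cells and 18.1 ± 2.86 FPKM in control cells, and with forskolin 8.41 ± 1.27 FPKM in NFIA cells and 15.7 ± 1.56 FPKM in control cells, apart at both. Of all genes tested, 63.3% and 65.1% were apart at these stages. Tissue held the most, with 58.63, 72.22 and 81.18 FPKM in the libraries labelled NFIA-KO, against 57.53, 53.57 and 58.11 FPKM in wild-type libraries. Vegfc (chr8:55162886-55271808 in mm9), the lymphatic factor, was low throughout. It averaged 1.87 ± 0.454 FPKM in NFIA cells and 1.91 ± 0.304 FPKM in control cells at day 0, 0.870 ± 0.219 FPKM in NFIA cells and 1.30 ± 0.0900 FPKM in control cells at day 7, and 0.753 ± 0.448 FPKM in NFIA cells and 0.650 ± 0.101 FPKM in control cells with forskolin. Its tissue means were 2.28 ± 0.150 FPKM in the libraries labelled NFIA-KO and 2.19 ± 0.529 FPKM in wild-type libraries.

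**Figure D2:**
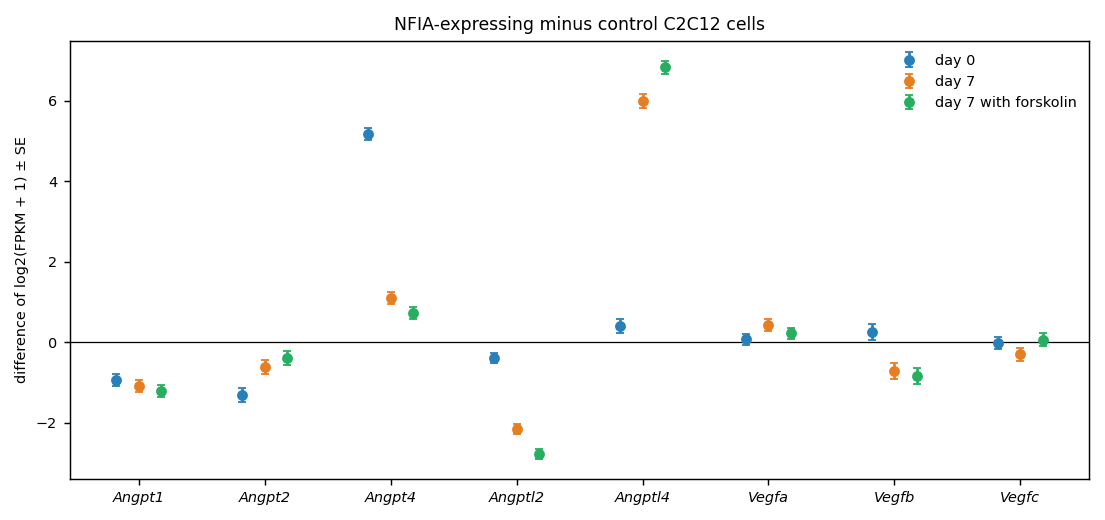
Difference of log2(FPKM + 1) between NFIA-expressing and control C2C12 cells for the 8 genes, with the standard error of the fit, at day 0, at day 7 and at day 7 with forskolin. Angpt4 stood at 5.17 at day 0 and 1.09 at day 7, and Angptl4 at 0.41 at day 0 and 5.99 at day 7.

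The fit covered all genes above the expression minimum, and a call means an adjusted p below 0.05. It held no term for the header date, and with that term more genes were called in every cell comparison. Between NFIA and control cells at day 0, 4 of the 8 genes were called (Angpt4 higher, and Angpt1, Angpt2 and Angptl2 lower), beside 21.2% of all genes tested. At day 7, 7 of the 8 were called, all but Vegfc, beside 55.5% of all genes. With forskolin 5 of the 8 were called (Angpt4 and Angptl4 higher, and Angpt1, Angptl2 and Vegfb lower), beside 61.6% of all genes. The median difference of the 8 genes was 0.03 at day 0, -0.46 at day 7 and -0.17 with forskolin, beside medians of 0.02, -0.03 and -0.04 over all genes. These counts describe genes that were chosen on these values, and nothing is read from them. With the header date as a term, Angptl4 was also called at day 0, and Angpt2 and Vegfa with forskolin.

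The same counts were made between day 7 and day 0 in each kind of cell, and nothing is read from them either. In NFIA cells 7 of the 8 were called, all but Angpt2, with Angptl4 and Vegfa higher and the other five lower, beside 56.9% of all genes. In control cells 5 of the 8 were called (Angpt4, Angptl2 and Vegfa higher, and Angpt2 and Angptl4 lower), beside 48.9% of all genes. The mean of Vegfa was higher at day 7 in both, and the means of Angpt4, Angptl2 and Angptl4 differed in opposite directions. As a description of the chosen genes, the term for a difference between these 2 steps was past the threshold for 5 of the 8, beside 45.3% of all genes: Angptl4 (5.58 ± 0.24), Angpt4 (-4.08 ± 0.21), Angptl2 (-1.76 ± 0.17), Vegfb (-0.97 ± 0.28) and Angpt2 (0.70 ± 0.23, SE). The Angpt2 term fell short of it with a pseudocount of 0.1 and without any of 4 libraries: control day 0 replicate 2, control day 7 replicate 1, NFIA day 0 replicate 2 or NFIA day 7 replicate 3 (0.54 to 0.62).

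Forskolin in control cells was compared in the same way, as a description. There Vegfa alone was called, 1 of 8 beside 3.97% of all genes, with 228 ± 17.3 FPKM with forskolin and 131 ± 9.28 FPKM without it (a difference of 0.79 ± 0.14, SE). Within the earlier and the later header dates that difference was 0.76 and 0.81. With the header date as a term 3 of the 8 were called, since Angptl4 (-0.38) and Vegfc (-0.48), both lower with forskolin, were then called too. In NFIA cells 4 of the 8 were called beside 32.6% of all genes: Vegfa (0.58 ± 0.14) and Angptl4 (0.46 ± 0.17) were higher with forskolin, and Angptl2 (-0.60 ± 0.12) and Angpt4 (-0.59 ± 0.15) were lower. The Angptl4 libraries with and without forskolin overlapped, and its call ended without NFIA day 7 replicate 1 (0.33) or 3 (0.50), without forskolin replicate 2 (0.39) or 3 (0.38), and under quantile normalization (0.15). It also ended with a pseudocount of 0.1, with no expression filter and with only the groups compared (0.46 in each). The Nfia level of NFIA cells was also 2.95-fold higher with forskolin, and its part in these differences was not tested. The term for a difference between the 2 forskolin steps, again a description, was past the threshold for 2 of the 8, beside 20.1% of all genes, Angptl4 (0.84 ± 0.24) and Angptl2 (-0.62 ± 0.17). The Angptl4 term fell short of it without any of 5 libraries: NFIA day 7 replicate 1, control day 7 replicates 2 or 3, or NFIA forskolin replicates 2 or 3 (0.71 to 0.79). For Vegfa the difference between the steps was -0.21 ± 0.20.

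**Figure D3:**
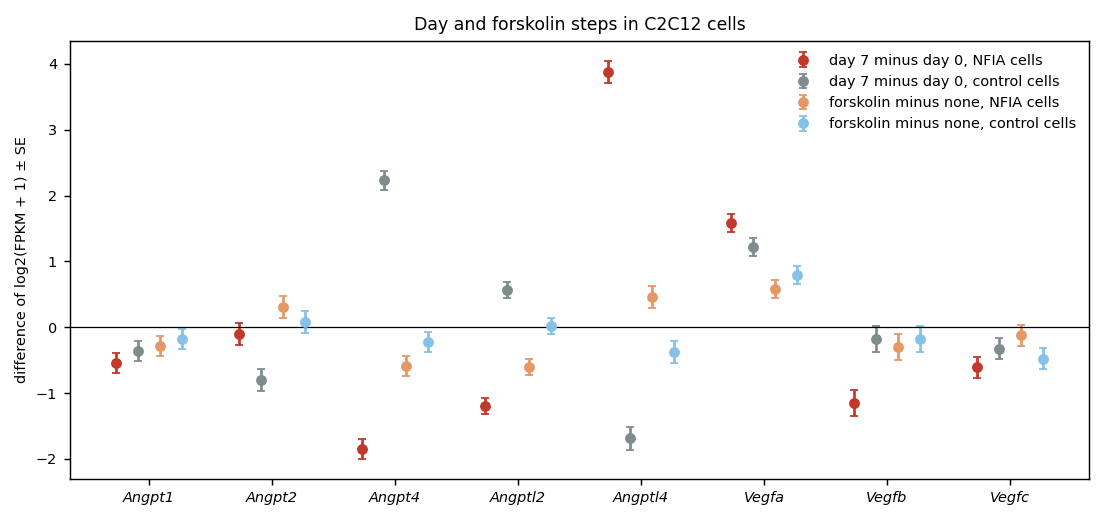
Differences of log2(FPKM + 1), with standard errors, between day 7 and day 0 and between forskolin and none, in NFIA-expressing and in control C2C12 cells. Angptl4 lay at 3.88 in NFIA cells and -1.69 in control cells for the day step, and Vegfa was above 0 for all 4 steps.

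Of 7 further family genes measured, 5 passed the expression minimum in the cells. Pgf, the placental growth factor that binds Flt1, was lower in NFIA cells at every stage. It had 6.2, 7.01 and 6.56 FPKM in NFIA cells at day 0, against 20.42, 25.28 and 26.10 FPKM in control cells. These groups did not overlap, beside 33.5% of all genes tested. The differences were -1.71 ± 0.12 at day 0, -1.56 ± 0.12 at day 7 and -1.16 ± 0.12 with forskolin (SE, limma, adjusted p = 5e-08, 2.4e-08 and 6.2e-07). Angptl7 had 11.94, 13.58 and 14.58 FPKM in NFIA cells at day 7, against 0.01, 0 and 0.01 FPKM in control cells (difference of 3.83 ± 0.07). Angptl1 had 4.65, 4.04 and 3.89 FPKM in NFIA cells at day 7, against 0.02, 0.01 and 0.04 FPKM in control cells (2.34 ± 0.07). In the cells both passed the expression minimum only through NFIA libraries of day 7, so no p is given for NFIA against control. Within NFIA cells both were lower with forskolin than without it, at 7.13 ± 0.576 FPKM for Angptl7 and 2.06 ± 0.119 FPKM for Angptl1 (limma, adjusted p = 5.6e-07 and 4.6e-07). Figf, now named Vegfd, was higher in NFIA cells than in control cells at day 7, with 5.64 ± 0.569 FPKM in NFIA cells and 3.28 ± 0.259 FPKM in control cells (0.63 ± 0.09, limma, adjusted p = 1.8e-05). Within NFIA cells it was lower at day 7 than at day 0 (-0.52 ± 0.09, limma, adjusted p = 0.00013). Angptl6 was higher in NFIA cells at day 0, with 3.99 ± 0.791 FPKM in NFIA cells and 0.673 ± 0.295 FPKM in control cells (1.58 ± 0.25, limma, adjusted p = 0.00022). Angptl7 lies inside the span of Mtor and Angptl1 inside that of Ralgps2 in the tables, so their reads could be shared with those genes.

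Of these 5 tested family genes, 2 were higher and 1 lower in NFIA cells at day 0, 3 were higher and 1 lower at day 7, and 3 were higher and 1 lower with forskolin, beside 21.2%, 55.5% and 61.6% of all genes called. Angptl1 and Angptl7 account for 1 of the higher genes at day 0 and 2 at each later stage. The median difference of the list was 0.16, 0.63 and 0.60 at these stages. The forskolin-stage difference of Angptl6 (0.60) lost its call with a pseudocount of 0.1, with no expression filter, with only the groups compared and without single libraries (0.44 to 0.65).

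The receptors of these ligands were mostly endothelial, and 4 of the 7 were low or listed at 0 in the cells. Tie1 and Flt4 were listed at 0 in all 18 C2C12 libraries, Tek was at or under 0.4 FPKM and Kdr at or under 1.39 FPKM. Only Flt1, Nrp1 and Nrp2 passed the minimum. Flt1, the receptor of Vegfa, Vegfb and Pgf, was higher in NFIA cells at each stage: 9.90, 8.52 and 8.07 FPKM in NFIA cells at day 0, against 1.95, 1.43 and 1.62 FPKM in control cells. Its differences were 1.88 ± 0.11, 1.79 ± 0.11 and 2.16 ± 0.11 (SE, limma, adjusted p = 6.1e-09, 1.9e-09 and 1.8e-10). Pgf and Flt1, a ligand and its receptor, thus differed in opposite directions at every stage.

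The neuropilins Nrp1 and Nrp2 are co-receptors of the VEGFs. Nrp2 was higher in NFIA cells at day 0, with 72.7 ± 7.19 FPKM against 50.3 ± 3.22 FPKM in control cells (0.52 ± 0.10, limma, adjusted p = 0.0018). At day 7 it was lower, with 12.96, 11.62 and 11.49 FPKM in NFIA cells and 28.4 ± 2.98 FPKM in control cells (-1.17 ± 0.10, limma, adjusted p = 1.3e-07). Nrp1 rose with forskolin in control cells, with 65.29, 53.51 and 53.53 FPKM with forskolin against 31.75, 25.92 and 24.84 FPKM without it (1.04 ± 0.16, limma, adjusted p = 0.0014). In NFIA cells it had 24.50, 19.61 and 20.70 FPKM with forskolin and 29.90, 22.16 and 22.66 FPKM without it, and the difference between the forskolin steps of NFIA and control cells was -1.23 ± 0.23 (limma, adjusted p = 0.0014). The day 0 difference of Nrp1 (0.54 ± 0.16, limma, adjusted p = 0.026) ended without NFIA replicate 1 (0.44) or control replicates 2 (0.49) or 3 (0.43).

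**Figure D4:**
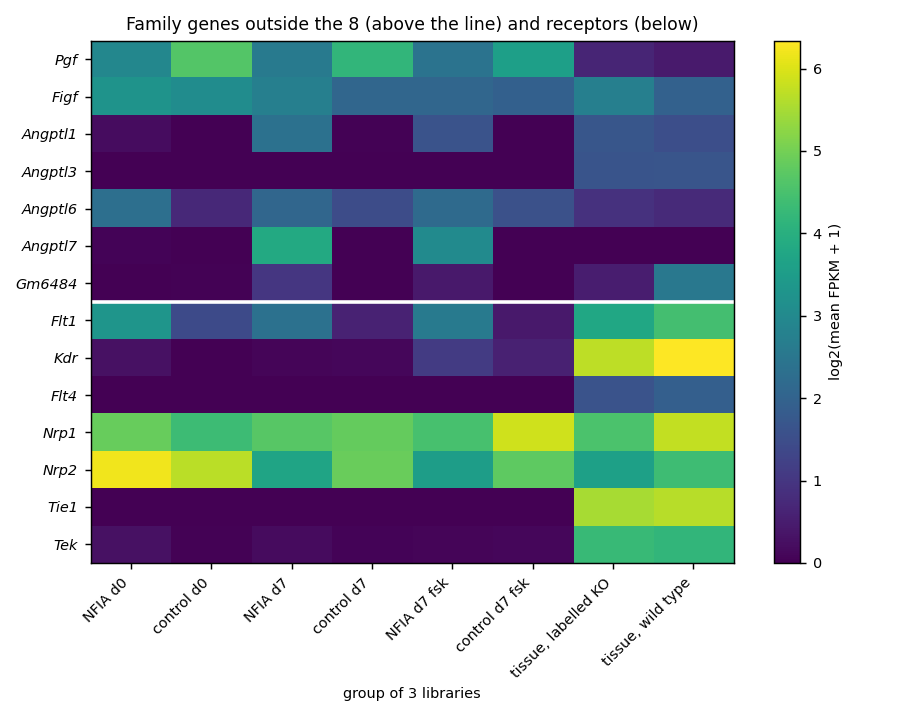
Group means as log2(FPKM + 1) for the 7 family genes outside the 8 (above the white line) and the 7 receptors (below it), in 8 groups of 3 libraries. Tek, Tie1 and Kdr had means of at least 17.0 FPKM in the tissue groups and at most 1.16 FPKM in the cells, Flt4 had 2.08 and 2.77 FPKM in the tissue and was listed at 0 in the cells, and Angptl7 was at 13.4 FPKM in NFIA cells at day 7 and at or below 0.06 FPKM in every library of the control, NFIA day 0 and tissue groups.

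The next list holds the lipase that Angptl4 inhibits and its partners. Lpl, the lipase itself, had 124 ± 10.6 FPKM in NFIA cells and 9.64 ± 0.485 FPKM in control cells at day 0 (3.55 ± 0.08, limma, adjusted p = 5.9e-13). The day 7 means of Lpl were 1107 ± 95.8 FPKM in NFIA cells and 81.1 ± 1.60 FPKM in control cells (3.75 ± 0.08, limma, adjusted p = 1.7e-14). With forskolin it had 2470 ± 29.4 FPKM in NFIA cells and 131 ± 7.75 FPKM in control cells (4.23 ± 0.08, limma, adjusted p = 3.6e-15). Lpl was thus higher in NFIA cells at day 0, where Angptl4 differed by 0.41. At day 0, 3 of 7 tested partners were higher and 0 lower, beside 21.2% of all genes called. At day 7, 4 of 7 were higher and 0 lower, a share close to the 55.5% of all genes called. The list medians were 0.23 and 0.85. At day 7 they included the fatty acid transporter Cd36 (204 ± 23.6 FPKM in NFIA cells and 16.2 ± 0.615 FPKM in control cells), endothelial lipase Lipg (14.7 ± 0.810 FPKM in NFIA cells and 3.0 ± 0.156 FPKM in control cells) and the protease Pcsk6.

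Angptl4 is a known PPAR target, and most other targets of these fatty acid receptors were higher in NFIA cells at day 7 but not at day 0. At day 0, 1 of 10 tested targets was higher in NFIA cells (Fabp4) and 3 were lower (Pdk4, Cpt1a and Plin2), and at day 7 and with forskolin 9 of 10 were higher and 0 lower, beside 21.2%, 55.5% and 61.6% of all genes called at the 3 stages. Cidec, 1 of the 9, passed the expression minimum only through NFIA cells. The list medians were -0.05, 2.83 and 3.63, beside 0.02, -0.03 and -0.04 over all genes. Plin2, a coat protein of lipid droplets, averaged 1624 ± 113 FPKM in NFIA cells and 106 ± 4.97 FPKM in control cells at day 7 (3.92 ± 0.12, limma, adjusted p = 6.5e-13). The day 0 means of Plin2 were 122 ± 13.8 FPKM in NFIA cells and 157 ± 9.68 FPKM in control cells (-0.37 ± 0.12, limma, adjusted p = 0.042), a call that ended without any of 5 of the 6 libraries, all but NFIA replicate 1 (-0.31 to -0.40). The Fabp4 call at day 0 also ended without NFIA replicates 1 or 2 or control replicates 2 or 3 (0.97 to 1.29). In NFIA cells Plin2 and Pdk4, a kinase that restrains glucose oxidation, were higher with forskolin by 1.13 ± 0.12 and 1.49 ± 0.08 (limma, adjusted p = 4.7e-06 and 2.5e-09), and the forskolin steps of NFIA and control cells differed by 1.25 ± 0.17 for Plin2 and 1.42 ± 0.11 for Pdk4 (limma, adjusted p = 0.00011 and 4.7e-07).

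Hypoxia-response genes, to which Vegfa belongs, rose with day in control cells. There 13 of 16 were higher at day 7 than at day 0 and 0 lower, with a list median of 1.51, beside 48.9% of all genes called. In NFIA cells 10 of 16 were higher and 1 lower, with a median of 0.86, beside 56.9% of all genes called. Epas1, 1 of the 10, passed the expression minimum only through cells of day 7. The carbonic anhydrase Car9 had 84.66, 114.29 and 86.81 FPKM at day 7 in control cells, against 0.46, 0.74 and 1.05 FPKM at day 0 (5.78 ± 0.22, limma, adjusted p = 2.1e-11). Adm, a vasodilator peptide, had 18.2 ± 2.11 FPKM at day 7 and 0.353 ± 0.179 FPKM at day 0 in control cells (3.83 ± 0.16, with no p, since Adm passed the expression minimum only through cells of day 7). Between NFIA and control cells at day 7 the list split, with 6 of 16 higher and 7 lower, beside 55.5% of all genes called. Epas1, 1 of the 6, passed the expression minimum only through NFIA cells. Adm had 1.06 ± 0.132 FPKM in NFIA cells and 18.2 ± 2.11 FPKM in control cells (-3.22 ± 0.16, limma, adjusted p = 1.5e-10), while Vegfa had 178 ± 23.1 FPKM in NFIA cells and 131 ± 9.28 FPKM in control cells.

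The response to forskolin itself was checked with 13 entries of known cAMP targets. In NFIA cells 12 were higher with forskolin and 1 lower, with a median of 2.92, beside 32.6% of all genes called. In control cells 9 were higher and 1 lower, with a median of 0.68, beside 3.97% of all genes called. Nr4a3, 1 of the higher entries in both, passed the expression minimum only through libraries with forskolin. Nr4a1, an early response gene, had 412 ± 59.1 FPKM with forskolin and 8.62 ± 1.81 FPKM without it in NFIA cells (5.43 ± 0.18, limma, adjusted p = 1.6e-11). In control cells it had 12.03, 15.44 and 17.58 FPKM with forskolin and 6.74 ± 0.393 FPKM without it (1.04 ± 0.18, limma, adjusted p = 0.0026). Of the hypoxia genes, Pfkfb3 was the 1 of 16 called higher with forskolin in control cells, with 17.1 ± 1.38 FPKM against 11.9, 11.39 and 12.61 FPKM without it (0.48 ± 0.08, limma, adjusted p = 0.0019), while Vegfa differed by 0.79. The Pfkfb3 call ended with only the groups compared (limma, adjusted p = 0.056). At an unadjusted p below 0.05, 7 of 16 passed in control cells (limma), and the list median was 0.25. In NFIA cells 6 of 16 were called higher with forskolin and 1 lower, beside 32.6% of all genes called.

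In brown fat none of the 7 tested genes among the 8 was called between the libraries labelled NFIA-KO and wild-type libraries (limma), beside 7.14% of all genes tested. The direction of the Nfia values above goes against that label, though they can include reads from parts that a knockout allele may keep. Vegfb was the 1 of 7 whose libraries did not overlap, beside 34.7% of all genes, with 0.31 ± 0.14 in log2(FPKM + 1). The other differences were -0.51 ± 0.28 for Angpt1, 0.39 ± 0.27 for Angpt2, 0.16 ± 0.28 for Angptl2, -0.21 ± 0.24 for Angptl4, -0.19 ± 0.23 for Vegfa and 0.05 ± 0.17 for Vegfc (SE). At an unadjusted p below 0.05, 0 of the 7 passed as well. The difference was -0.47 for Vegfa and -0.01 for Angptl4 without wild-type replicate 3, in which Fabp4 was listed at 0, and it was -0.03 for Vegfa without wild-type replicate 2. In bulk tissue, fewer cells of a type and less RNA per cell cannot be told apart.

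The tissue expressed the endothelial receptors that were low or listed at 0 in the cells. Tie1, Tek, Kdr and Flt1 are named here after their values were seen. Tie1 had 50.20, 48.53 and 35.74 FPKM in the libraries labelled NFIA-KO, against 55.22, 54.93 and 38.50 FPKM in wild-type libraries, and Tek had 19.06, 18.72 and 17.28 FPKM in the libraries labelled NFIA-KO, against 18.34, 19.51 and 13.19 FPKM in wild-type libraries. Of 7 receptors tested 0 were higher and 2 lower, Nrp1 and Nrp2, with a list median of -0.64, beside 7.14% of all genes called. Nrp1 had 20.11, 22.76 and 24.46 FPKM in the libraries labelled NFIA-KO, against 67.86, 46.32 and 44.12 FPKM in wild-type libraries (-1.18 ± 0.19, limma, adjusted p = 0.027). Nrp2 had 10.67, 11.92 and 10.85 FPKM in the libraries labelled NFIA-KO, against 23.88, 15.61 and 19.11 FPKM in wild-type libraries (-0.74 ± 0.17, limma, adjusted p = 0.048). The Nrp1 call ended without either of replicates 1 and 2 labelled NFIA-KO or without wild-type replicates 1 or 3 (adjusted p = 0.061 to 0.096), and the Nrp2 call ended without any library but wild-type replicate 2 (adjusted p = 0.088 to 0.17). With no expression filter both calls also ended (limma, adjusted p = 0.07 for Nrp1 and 0.097 for Nrp2). The Nrp2 call ended with the replicate block as well (limma, adjusted p = 0.07). Kdr and Flt1 did not pass the test, with 51.6 ± 11.2 FPKM in the libraries labelled NFIA-KO and 79.9 ± 6.42 FPKM in wild-type libraries for Kdr (-0.64 ± 0.18, limma, adjusted p = 0.070) and 12.6 ± 1.95 FPKM in the libraries labelled NFIA-KO and 20.9 ± 2.97 FPKM in wild-type libraries for Flt1 (-0.69 ± 0.16, limma, adjusted p = 0.050). The Flt1 difference was called under quantile normalization (adjusted p = 0.038), median-of-ratios scaling (adjusted p = 0.049) and the replicate block (adjusted p = 0.046). The 12 endothelial markers summed to 674 to 787 FPKM in the libraries labelled NFIA-KO and 765 to 908 FPKM in wild-type libraries, and 0 of 12 were called by limma, with 1 of 12 at an unadjusted p below 0.05.

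Gm6484, whose gene identifier is annotated as Angptl8 in GENCODE M21, was the 1 family gene outside the 8 called in the tissue. Angptl8 is a lipid-induced partner of other angiopoietin-like proteins in the inhibition of lipoprotein lipase. It had 0.43, 0.07 and 0.78 FPKM in the libraries labelled NFIA-KO, against 6.47, 4.92 and 3.06 FPKM in wild-type libraries, a difference of -2.01 ± 0.28. It passed the expression minimum only through wild-type libraries, so no p is given, its call ended without replicates 1 or 2 labelled NFIA-KO, and the gene lies in the span of Dock6. Lpl had 747 ± 43.1 FPKM in the libraries labelled NFIA-KO and 887 ± 165 FPKM in wild-type libraries, and 0 of 8 lipase partners were called by limma, with 3 of 8 at an unadjusted p below 0.05. Of 7 brown adipocyte markers 4 were lower in the libraries labelled NFIA-KO and 0 higher, beside 7.14% of all genes called. Of 9 skeletal muscle markers 6 were higher and 0 lower, 2 of the 6 having passed the expression minimum only through the libraries labelled NFIA-KO. Among the other lists, 2 of 14 hypoxia genes, 1 of 12 PPAR targets and 4 of 13 cAMP entries were higher, with 0, 1 and 0 lower, beside the same share. The calls of the hypoxia genes Egln3 and Pdk1 and the PPAR targets Pdk4 (higher) and Slc25a20 (lower) ended with no expression filter. Each also ended without wild-type replicates 1 or 3 (limma, adjusted p = 0.073 to 0.18) and without some of the libraries labelled NFIA-KO. Pde4d gave 2 of the 4 cAMP entries. Nr4a3, another of them, passed the expression minimum only through the libraries labelled NFIA-KO. Nr4a1, which led the cAMP entries, had 142.09, 101.01 and 32.48 FPKM in the libraries labelled NFIA-KO, against 2.55, 3.22 and 4.24 FPKM in wild-type libraries (4.20 ± 0.50, limma, adjusted p = 0.016), a call that ended without wild-type replicates 1 (adjusted p = 0.094) or 3 (adjusted p = 0.058). The part of these markers in the tissue differences was not tested.

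**Figure D5:**
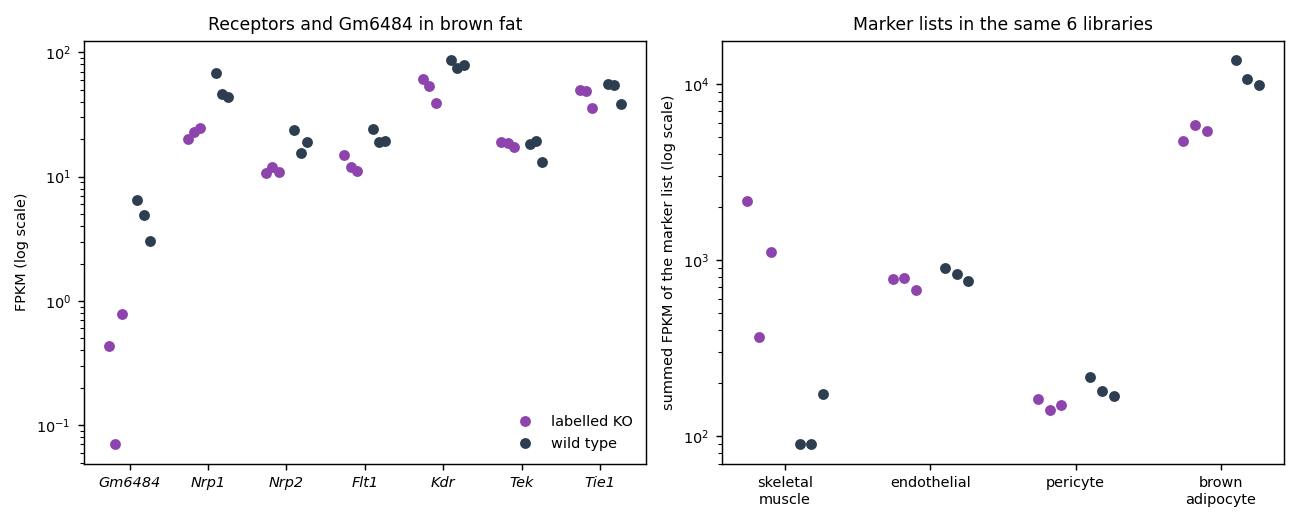
Left, FPKM (log scale) of Gm6484 and 6 receptors in the 3 brown fat libraries labelled NFIA-KO and the 3 wild-type libraries. Right, the summed FPKM (log scale) of marker lists in the same libraries, with skeletal muscle sums of 364 to 2155 in the libraries labelled NFIA-KO and 89.8 to 174 in wild-type libraries.

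Across the 8 group means, the genes most like each of the 8 were found by Pearson correlation of log2(FPKM + 1) among 12810 genes, as a description. Angpt4 was closest to Cdsn (r = 0.982), Fbln7 (0.973) and Ptprf (0.971). Angptl4 was closest to Gak (0.988), Tkt (0.987) and Mpdu1 (0.987). Angptl2 was closest to Rhebl1 (0.996), Med30 (0.996) and A4galt (0.995), and Angpt1 to Xrcc5 (0.996), Antxr2 (0.992) and Cntrob (0.992). Vegfa was closest to Aldoart1 (0.989), Gm11808 (0.988) and 4833439L19Rik (0.980), and Vegfb to Rgs4 (0.992), Pcgf2 (0.990) and Rnf169 (0.990). The low genes Angpt2 and Vegfc had their highest values with Zfp788 (0.961), Irak2 (0.949) and Smarce1 (0.940), and with Gtf3a (0.963), Mnd1 (0.958) and Wdr62 (0.950). With 8 points that share libraries and the split between cells and tissue, such values are high for many genes.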

How the data were processed

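Gene-level FPKM values were deposited by the authors, 1 table per library with 37305 rows. TopHat and Cufflinks and the build mm9 are named in the submitters' processing notes, without versions, and per the labels the libraries were stranded polyadenylated RNA. FPKM gives no read counts, so the depth behind a value is unknown. Rows of 1 symbol at overlapping loci were summed, which merged 264 rows and left 37041 genes. Listed starts were raised by 1, since 28 of 37 mitochondrial genes then matched GENCODE.

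Differences were fitted on log2(FPKM + 1) with limma 3.58.1 (R 4.3.3, empirical Bayes with trend) over genes with at least 1 FPKM in 3 or more libraries, separately for the 18 cell libraries and the 6 tissue libraries, with Benjamini-Hochberg adjustment over all genes tested and a call below 0.05. Fold changes on this scale understate those of low genes. The fit was tested on simulated data for the tissue and for NFIA against control cells at day 0. The simulated noise was independent between libraries, so it does not cover deviations that libraries of a date share. The 8 genes, the gene lists and the tests were chosen with earlier results of these data known. Genes outside the 8 were named by rule: up to 4 called genes of a list with the largest change, 2 of the highest by mean FPKM where none was called, and the 3 most alike. The comparisons between NFIA and control cells and those between stages share groups. Alternatives were another pseudocount, no expression filter, quantile and median-of-ratios scaling, blocks, fewer groups and left-out libraries. Promoters came from RefSeq.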

Additional observations from a re-analysis of the deposited data

Results flagged for a closer look

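The step between day 7 and day 0 ran in opposite directions in NFIA and control cells, with every library of day 7 on one side of every library of day 0, for Angptl4 (NFIA step minus control step of 5.58 on the log2(FPKM + 1) scale), Angpt4 (-4.08) and Angptl2 (-1.76). These genes were chosen on the same values, so these differences are given as a description, with no p-value. Over all genes tested, the libraries of day 7 and day 0 were apart for 64.9% in NFIA cells and 53.3% in control cells. Outside the 8 genes the step differed by a limma interaction term for Nrp2 (-1.69 ± 0.15, adjusted p = 1.9e-07), Nrp1 (-0.69 ± 0.23, adjusted p = 0.024), Figf (0.47 ± 0.12, adjusted p = 0.0061) and Angptl6 (-0.97 ± 0.35, adjusted p = 0.034). The Nrp1 value lost its call without any of 6 of the 12 libraries (adjusted p = 0.055 to 0.063), under quantile normalization (adjusted p = 0.084) and under median-of-ratios scaling (adjusted p = 0.082). The Angptl6 value lost its call without any of 6 of the 12 libraries (adjusted p = 0.052 to 0.091), with no expression filter (adjusted p = 0.057) and under quantile normalization (adjusted p = 0.12).

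The forskolin step differed between NFIA and control cells by the same kind of term for Slc2a1 (1.49 ± 0.26, adjusted p = 0.00081), Pdk4 (1.42), Plin2 (1.25), Nrp1 (-1.23), Figf (-0.49 ± 0.12, adjusted p = 0.012) and Lpl (0.48 ± 0.12, adjusted p = 0.0094). Under quantile normalization the Lpl value was 0.05 (adjusted p = 0.93) and the Figf value -0.37 (adjusted p = 0.082), and the Figf value had an adjusted p of 0.055 with only the numbered libraries.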

How the results depend on the processing

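No called difference of a named gene changed sign under the alternatives tried. Of 79 fitted differences of the 8 genes, 11 that were not called did, all 0.22 or smaller as reported, such as Vegfa between NFIA and control cells at day 0 (0.07, or -0.08 with only the numbered libraries). Numbers of genes called between NFIA and control cells at day 0 were 3036 as reported, 5159 with a replicate block, 5303 with the header date as a term and 1872 with only the groups compared. For forskolin in control cells they were 570 as reported, 1260 with the replicate block, 1343 with the date term, 239 with only the groups compared and 361 to 447 when 1 library was left out (363 without control day 7 replicate 2 and 361 without control forskolin replicate 2), and the called among the 8 genes were 1, 2 with the replicate block, 3 with the date term and 2 with only the numbered libraries. For the forskolin interaction they were 2890 as reported, 5041 with the replicate block, 5149 with the date term and 4556 with only the numbered libraries. The called among the 8 were 2 as reported and 1 to 2 with 1 library left out. They were 3 with each of the replicate block, the date term, only the numbered libraries and quantile normalization. In the tissue they were 973 as reported, 40 with no expression filter and 19 to 1361 with 1 library left out: 19 without wild-type replicate 1, 53 without wild-type replicate 3, 148, 109 and 541 without replicates 1, 2 and 3 labelled NFIA-KO. The causes were not tested.

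The replicate number does not pair the libraries by the labels, since the C2C12 titles number only replicates 2 and 3. The deviations of same-numbered cell libraries from their group means did correlate, always above 0. The correlation was 0.289 to 0.429 for replicate 1, the library of the earlier date, and 0.081 to 0.277 for replicates 2 and 3. In the tissue it was -0.00912, 0.111 and 0.143. The reported fit held no term for date or replicate. The replicate block brought in calls for Angptl4 at day 0 (0.41) and for forskolin in control cells (-0.38) and Angpt1 for day 7 against day 0 in control cells (-0.36), among others. Quantile normalization moved the share of higher calls by over 10 points for day 7 against day 0 in control cells alone, with 3039 higher and 4405 lower, against 3579 and 3434. In 7 of 10 comparisons the larger side of the calls changed under quantile or median-of-ratios scaling. Without read counts, low values such as those of Angpt2, Vegfc and tissue Angpt4 have no counting interval.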
